A study of Homo sapiens with 3 samples.

Results

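The aminoacyl-tRNA synthetases are the enzymes that join each amino acid to its transfer RNA. Their genes were read here as a list of 35 symbols, 19 for the cytosol and 16 for the mitochondrion, and all 35 were found among the 22464 genes of the table. The members were taken by name and not by a threshold on their values. The list is not the whole family, since the aspartyl enzymes are not in it. SK-Hep-1 cells, an established human line derived from a liver adenocarcinoma, were profiled by RNA sequencing in 3 groups of 1 library each. In sh1089-1 and sh1089-2 the long noncoding RNA LINC01089 was the knockdown target, and shNC is the negative control. The prefix sh is read here as a short hairpin RNA, which the labels do not spell out. They also give no time point, no delivery method and no statement on whether the cells were clones or pools. Both hairpin groups are compared with the same shNC library, so their differences share its error, and no difference has a replicate check.

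Translation reads an amino acid only from a charged tRNA, so every codon depends on one of these enzymes. They fall into class I and class II by the fold of their catalytic domain. In the cytosol several of them sit in a multi-tRNA synthetase complex, held by the scaffold proteins AIMP1, AIMP2 and EEF1E1, while mitochondria use a separate set of enzymes that is also encoded in the nucleus. Uncharged tRNA activates the kinase GCN2, and the transcription factor ATF4 made in that response induces many cytosolic synthetase genes together with amino acid transporters and biosynthetic enzymes.

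Levels are given in FPKM, fragments scaled to gene length and library total, as the authors computed them. Whole reads behind each value were worked out from the steps between FPKM values, and the libraries held 9528312 reads in sh1089-1, 8359832 in sh1089-2 and 10698480 in shNC. The level of LINC01089 was not analysed here. Of 10 hepatocyte markers, 6 were in the table and only SERPINA1 exceeded 1 FPKM, while APOA1, TTR and FGB were at 0 in each library. Of 10 endothelial markers 9 were in the table, and ENG alone exceeded 1 FPKM. Among the mesenchymal markers 8 of 10 exceeded 1 FPKM, and VIM was the highest. Among the lists read here, the cell division genes had the largest median difference of either hairpin library from shNC. Their 14 listed members summed to 786 FPKM in sh1089-1, 776 in sh1089-2 and 368 in shNC, and the part of cell division in the synthetase values was not tested. In bulk RNA a lower level in each cell and fewer cells with the RNA cannot be told apart.

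Of the 35 synthetase genes, 34 exceeded 1 FPKM in each library, and SARS2 did not. Together they took 0.450% of the reads in sh1089-1, 0.431% in sh1089-2 and 0.397% in shNC. The cytosolic genes had a median of 37.2 FPKM in sh1089-1, 35.6 in sh1089-2 and 32.5 in shNC, and the mitochondrial genes 6.83, 6.36 and 6.07 FPKM in the same order. The cytosolic range in shNC ran from 10.4 FPKM for CARS1 to 72.2 for KARS1, and the mitochondrial range from 0.752 for SARS2 to 30.9 for IARS2. AARS1 (alanine), KARS1 (lysine) and GARS1 (glycine) led the order in both hairpin libraries. In shNC the lead was held by KARS1, AARS1 and VARS1 (valine). AARS1 and KARS1 differed by little there, with 3390 and 3139 reads and 70.4 and 72.2 FPKM.

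**Figure D1:**
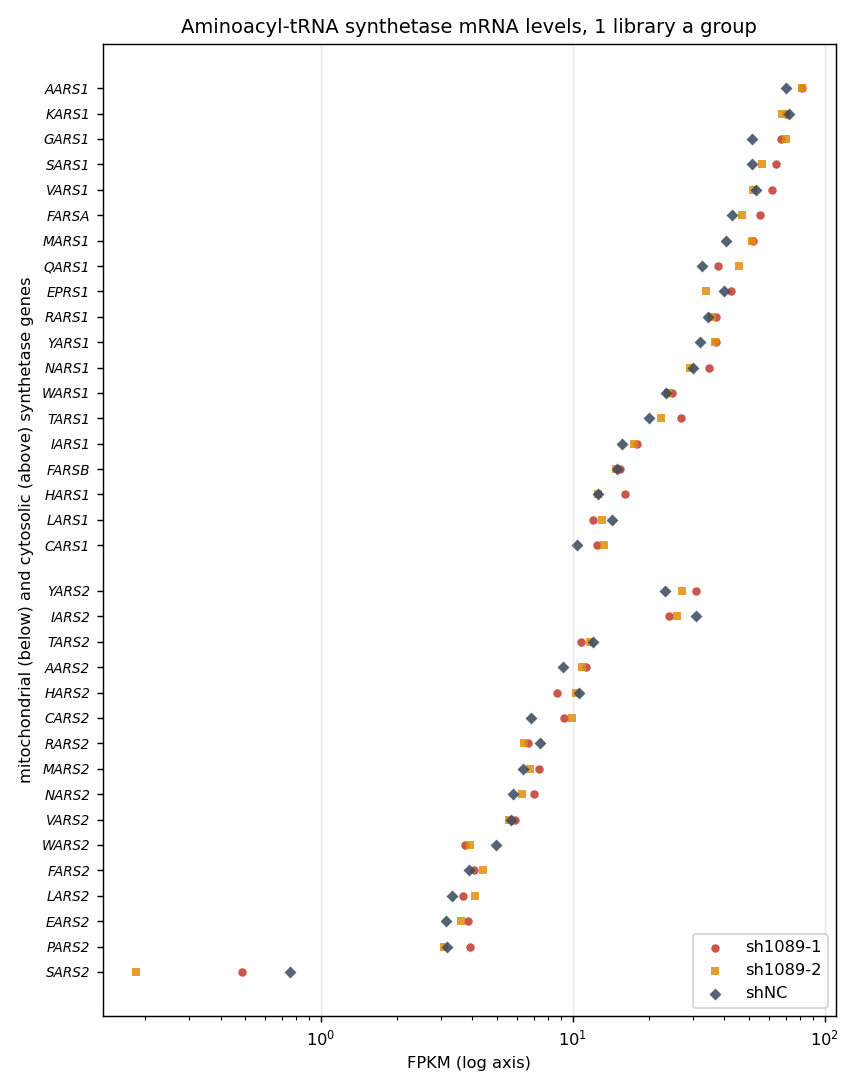
FPKM on a log axis for each of the 35 synthetase genes, 1 point a library, with cytosolic genes above and mitochondrial genes below, each ordered by mean. The 3 libraries lie close together for each gene except SARS2, and the cytosolic genes lie mostly above 10 FPKM.

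The order between genes depends on the gene length used. The lengths worked out from the values equal the summed exons of GENCODE 29 for 62.7% of genes, and on that scale genes with long untranslated or retained parts get a low FPKM. Rescaled to the length of the transcript with the longest coding sequence, a step added after the data were seen, CARS1 (cysteine) stood at 38.0 in shNC instead of 10.4 and MARS1 (methionine) at 98.0 instead of 40.5. The cytosolic median then became 60.7 in sh1089-1, 55.4 in sh1089-2 and 50.8 in shNC, and the mitochondrial median 12.2, 12.3 and 11.6. The ratio of a gene's FPKM between libraries does not depend on the length, while its difference in log2(FPKM + 1) does for low genes.

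Against shNC, the first comparison asked which synthetase genes differed with the hairpin sh1089-1. Among the 34 genes with a mean of at least 1 FPKM most stood slightly higher, and none reached 1.5-fold. The highest were CARS2, the mitochondrial cysteine enzyme, TARS1 (threonine), YARS2, the mitochondrial tyrosine enzyme, GARS1 and FARSA, a subunit of the phenylalanine enzyme. The lowest were IARS2, the mitochondrial isoleucine enzyme, and WARS2, the mitochondrial tryptophan enzyme. Of these 34, 0 passed 1.5-fold upward and 0 downward in log2(FPKM + 1), where 5.27% and 5.83% of all 11198 tested genes passed. That scale adds a pseudocount of 1 and understates the change of low genes. At 1.25-fold, a threshold chosen after the 1.5-fold count was seen, 7 of 34 were higher (20.6%, against 15.0% of all tested genes) and 2 were lower (5.88%, against 18.0%). Scaling shifted this split of 7 to 2, which became 8 to 1 after rescaling to TPM and 9 to 0 with median-of-ratios size factors. At any size 27 of 34 lay above shNC (79.4%, against 46.3% of all tested genes) and 7 below (20.6%, against 53.6%). The 95% counting interval of the ratio, a rule added after the data were seen, lay wholly above equal levels for 18 of the 34 (52.9%, against 24.7% of tested genes) and wholly below for 4 (11.8%, against 27.9%). Of the 7 genes past 1.25-fold upward 5 are cytosolic (26.3% of 19) and 2 mitochondrial (13.3% of 15). Both genes past it downward are mitochondrial (13.3% of 15).

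The second comparison put sh1089-2 against the same shNC library. The leading genes were CARS2, QARS1 (glutamine), GARS1 and MARS1, again all under 1.5-fold among the 34. At that threshold 0 of 34 were higher and 0 lower, against 4.89% and 5.63% of all tested genes. At 1.25-fold 4 were higher (11.8%, against 13.2%) and 0 lower (0%, against 17.6%). At any size 20 of 34 lay above shNC (58.8%, against 44.8%) and 14 below (41.2%, against 55.1%). That split rests on the scale, since 28 lay above and 6 below after rescaling to TPM, and likewise with median-of-ratios size factors, where 52.9% and 51.6% of all tested genes lay above. Counting intervals on the deposited scale lay wholly above equal levels for 14 genes (41.2%, against 22.1%) and wholly below for 5 (14.7%, against 27.6%). The share past 1.25-fold upward was thus close to the background in this library.

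**Figure D2:**
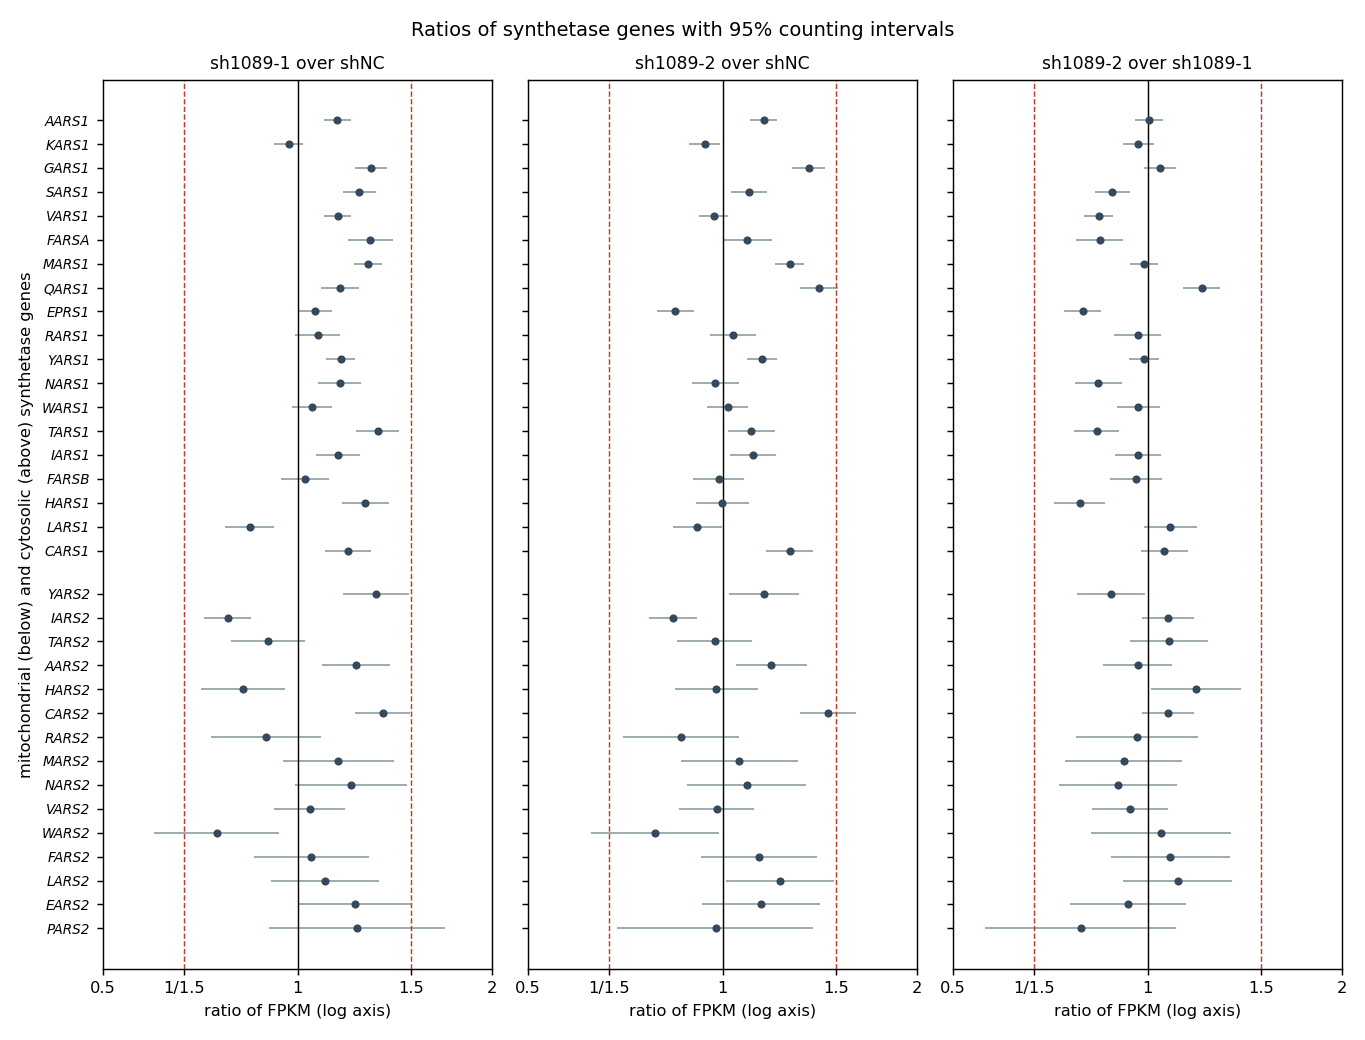
Ratio of FPKM on a log axis for the 34 synthetase genes with a mean of at least 1 FPKM, in sh1089-1 over shNC, sh1089-2 over shNC and sh1089-2 over sh1089-1. Bars are 95% Clopper-Pearson intervals that cover counting error only, the solid line marks equal levels and the dashed lines mark 1.5-fold, which no point crosses.

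The multi-tRNA synthetase complex held 7 of the cytosolic members. QARS1, which charges glutamine tRNA, had 37.9 FPKM in sh1089-1 and 45.9 in sh1089-2, against 32.5 in shNC. It was 1.16-fold (95% counting interval 1.09 to 1.25) and 1.41-fold (1.32 to 1.51) above shNC, the highest ratio of any cytosolic member. MARS1 had 52.1 and 51.5 FPKM in the hairpin libraries, against 40.5 in shNC, or 1.29-fold (1.22 to 1.35) and 1.27-fold (1.21 to 1.34). Both hairpin values of these 2 genes lay above the control. Exons of MARS1 overlap those of DDIT3, a stress-response factor gene on the other strand, over 355 bases, or 5.05% of the MARS1 exon bases. DDIT3 was lower in both hairpin libraries, with 17.1 and 18.2 FPKM against 30.7 in shNC.

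EPRS1, a fused enzyme for glutamate and proline, had 42.5 FPKM in sh1089-1 and 33.7 in sh1089-2, against 39.9 in shNC. Its hairpin values lay on opposite sides of the control. IARS1 (isoleucine) had 18.1 and 17.4 FPKM, against 15.6 in shNC, and RARS1 (arginine) 36.9 and 35.6, against 34.3. The lysine gene KARS1, which serves both cytosol and mitochondria, had 69.9 and 67.7 FPKM, against 72.2, and LARS1 (leucine), which also senses leucine for the kinase mTORC1, had 12.1 and 13.1 FPKM, against 14.3. LARS1 lay below shNC in both libraries, by 1.19-fold and 1.09-fold, and so did KARS1 on the deposited scale, though in sh1089-1 it lay just above shNC with median-of-ratios size factors. The 7 listed members of the complex summed to 269 FPKM in sh1089-1, 265 in sh1089-2 and 249 in shNC, with median differences of 0.10 and 0.05 in log2(FPKM + 1). Of its scaffold genes, AIMP2 had 29.6 and 30.0 FPKM in the hairpin libraries and 26.8 in shNC, AIMP1 8.29 and 7.15 against 7.61, and EEF1E1 4.88 and 4.24 against 5.24.

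Outside the complex, GARS1 makes both the cytosolic and the mitochondrial glycine enzyme from a single gene. It had 66.9 FPKM in sh1089-1 and 69.9 in sh1089-2, against 51.4 in shNC, a ratio of 1.30 (1.23 to 1.38) for sh1089-1 and of 1.36 (1.28 to 1.44) for sh1089-2. The gene lies on chromosome 7 at 30594681 to 30634033 on the plus strand (GENCODE 29, GRCh38). Its reads numbered 2546, 2336 and 2198 in the same order. CARS1 had 12.5 and 13.3 FPKM, against 10.4, and AARS1 81.2 and 81.5, against 70.4. The tyrosine gene YARS1 had 37.2 and 36.8 FPKM, against 31.9. In these 4 genes the hairpin libraries lay near each other and above the control.

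A second group was higher mainly in sh1089-1. TARS1 had 26.8 FPKM there and 22.3 in sh1089-2, against 20.2 in shNC, and SARS1 (serine, including the tRNA for selenocysteine) 64.2 and 56.6, against 51.5. FARSA had 55.6 and 46.8 FPKM, against 42.9. NARS1 (asparagine) had 34.7 and 29.1, against 29.9, and VARS1 61.6 and 51.7, against 53.4. In NARS1 and VARS1 the sh1089-2 value lay just under the control on the deposited scale, and just above it after rescaling to TPM or with median-of-ratios size factors. FARSB, the other subunit of the phenylalanine enzyme, had 15.4 and 14.8 FPKM, against 15.0. WARS1, the tryptophan enzyme gene known for its induction by interferon gamma, had 24.7 and 23.9 FPKM, against 23.5, among the smallest differences of the list.

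FARSA and FARSB encode the α and β subunits of 1 enzyme that holds equal numbers of each. Their mRNAs were unequal, with FARSA over FARSB at 3.61 in sh1089-1, 3.17 in sh1089-2 and 2.86 in shNC. With coding transcript lengths the ratio was 2.05, 1.80 and 1.63, so FARSA was the higher in each library on either length.

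Among the mitochondrial enzymes, CARS2 had 9.26 FPKM in sh1089-1 and 9.96 in sh1089-2, against 6.84 in shNC. Its ratios to shNC were 1.35 (1.23 to 1.49) and 1.46 (1.32 to 1.61), on 921, 869 and 764 reads. YARS2 had 30.8 and 27.1 FPKM, against 23.3, or 1.32-fold (1.18 to 1.49) and 1.16-fold (1.02 to 1.31). AARS2 had 11.3 and 10.9 FPKM, against 9.13. These 3 were above shNC in both hairpin libraries, with intervals that exclude equal levels by counting error.

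IARS2 and WARS2 went the other way. IARS2 had 24.1 FPKM in sh1089-1 and 25.8 in sh1089-2, against 30.9 in shNC, a level 1.28-fold lower in sh1089-1 (1.18 to 1.39) and 1.19-fold lower in sh1089-2 (1.10 to 1.30). WARS2 had 3.74 and 3.92 FPKM, against 4.98, with 137, 126 and 205 reads behind them. It was 1.33-fold lower in sh1089-1 (1.07 to 1.67) and 1.27-fold lower in sh1089-2 (1.01 to 1.60). RARS2, for arginine, had 6.65 and 6.41 FPKM, against 7.43, and TARS2, for threonine, 10.8 and 11.7, against 12.0. Both lay below shNC with intervals that include equal levels, and TARS2 in sh1089-2 lay just above shNC after rescaling to TPM or with median-of-ratios size factors.

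For the other mitochondrial genes the counting intervals held equal levels or came close to them. EARS2 (glutamate) had 3.85 and 3.59 FPKM in the hairpin libraries, against 3.13 in shNC, NARS2 7.01 and 6.31, against 5.79, and MARS2 7.34 and 6.74, against 6.35. LARS2 had 3.67 and 4.09 FPKM, against 3.33, and FARS2 4.06 and 4.40, against 3.87. All 5 were above the control in both libraries by values, with 166 to 222 reads in each library. PARS2 (proline) had 3.92 and 3.10 FPKM, against 3.17, on 88, 61 and 80 reads, and VARS2 5.93 and 5.56, against 5.68. VARS2 shares 22% of its exon bases with GTF2H4 on the same strand, so its reads are uncertain. GTF2H4 had a mean of 0.0321 FPKM over the libraries.

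SARS2, the mitochondrial serine enzyme gene, was the lowest of the list and the only member under 1 FPKM. It had 0.487 FPKM in sh1089-1 and 0.185 in sh1089-2, against 0.752 in shNC. These values rest on 15, 5 and 26 reads, and the ratios to shNC were 0.648 (0.319 to 1.27) and 0.246 (0.0738 to 0.651). Its exons overlap those of another annotated gene on the same strand over 46.2% of their bases. They overlap those of MRPS12, a mitochondrial ribosomal protein gene, on the other strand over 10.8%. The same-strand gene had a mean of 0.0203 FPKM over the libraries and MRPS12 44.0. How reads in the shared stretches were assigned or dropped is not given in the sources used here, so the level of SARS2 is uncertain.

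HARS1 and HARS2, the cytosolic and mitochondrial histidine enzyme genes, form a head-to-head pair on chromosome 5 and were singled out after their values were seen. The 84 bases between their RefSeq starts are shown because one short stretch lies before both genes. They are read on the plus strand of build GRCh38.p14, chr5:140691371-140691454, with HARS1 leaving to the left and HARS2 to the right, and capitals mark CCGGAAG or its reverse complement.
HARS1-HARS2: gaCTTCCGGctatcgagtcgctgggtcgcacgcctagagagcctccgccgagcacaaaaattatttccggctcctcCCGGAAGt

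In sh1089-1 the genes of this pair differed from shNC in opposite directions. HARS1 had 16.1 FPKM in sh1089-1 and 12.6 in sh1089-2, against 12.7 in shNC. HARS2 had 8.69 and 10.3 FPKM, against 10.6. HARS1 was thus 1.27-fold (1.17 to 1.39) higher and HARS2 1.21-fold (1.05 to 1.41) lower in sh1089-1, while in sh1089-2 both lay within counting error of shNC. GENCODE 29 gives the genes 437 shared exon bases on opposite strands, 11.7% of the exon bases of HARS2. Whether counting used the strand is not given in the sources used here, so reads in that stretch cannot be told apart.

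The third comparison, sh1089-2 against sh1089-1, gives the distance between the hairpin lines with no control library in it. The synthetase genes differed by a median of 0.10 in absolute log2(FPKM + 1), against 0.22 for sh1089-1 and 0.14 for sh1089-2 when each was set against shNC. All tested genes had 0.16, 0.22 and 0.20 in the same order. At 1.5-fold 0 of 34 were higher and 0 lower, where 2.47% and 2.3% of all tested genes were. At any size 12 of 34 lay above sh1089-1 (35.3%, against 47.7%) and 22 below it (64.7%, against 52.1%), which became 16 and 18 after rescaling to TPM. At 1.25-fold 0 were higher (0%, against 9.45%) and 2 lower (5.88%, against 10.1%), namely EPRS1 and HARS1. EPRS1 was 1.26-fold (1.18 to 1.35) lower in sh1089-2 than in sh1089-1, and HARS1 1.27-fold (1.16 to 1.40). QARS1 was the member furthest in the other direction, 1.21-fold (1.13 to 1.30) higher in sh1089-2. Counting intervals lay wholly above equal levels for 2 of the 34 genes (5.88%, against 17.5% of tested genes) and wholly below for 8 (23.5%, against 20.2%).

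The cytosolic genes had median differences of 0.21 (95% order-statistic interval over members 0.09 to 0.33) in sh1089-1 over shNC and 0.12 (−0.04 to 0.21) in sh1089-2 over shNC. All tested genes had −0.03 and −0.04. The mitochondrial genes had 0.11 (−0.14 to 0.24) and 0.07 (−0.04 to 0.21). In sh1089-2 these medians moved with the setting, the cytosolic one to 0.19 and the mitochondrial one to 0.14 after rescaling to TPM, and the mitochondrial one to 0.03 at a mean of at least 5 FPKM. Genes are not replicates, so these intervals describe the list and do not test a change. In sums of FPKM, the cytosolic genes came to 766 in sh1089-1, 724 in sh1089-2 and 663 in shNC, and the mitochondrial genes to 142, 140.03 and 137. By catalytic fold, the 18 class I genes had medians of 0.19 and 0.11 and the 15 tested class II genes 0.24 and 0.11, and EPRS1 holds a domain of each class and was counted in neither.

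**Figure D3:**
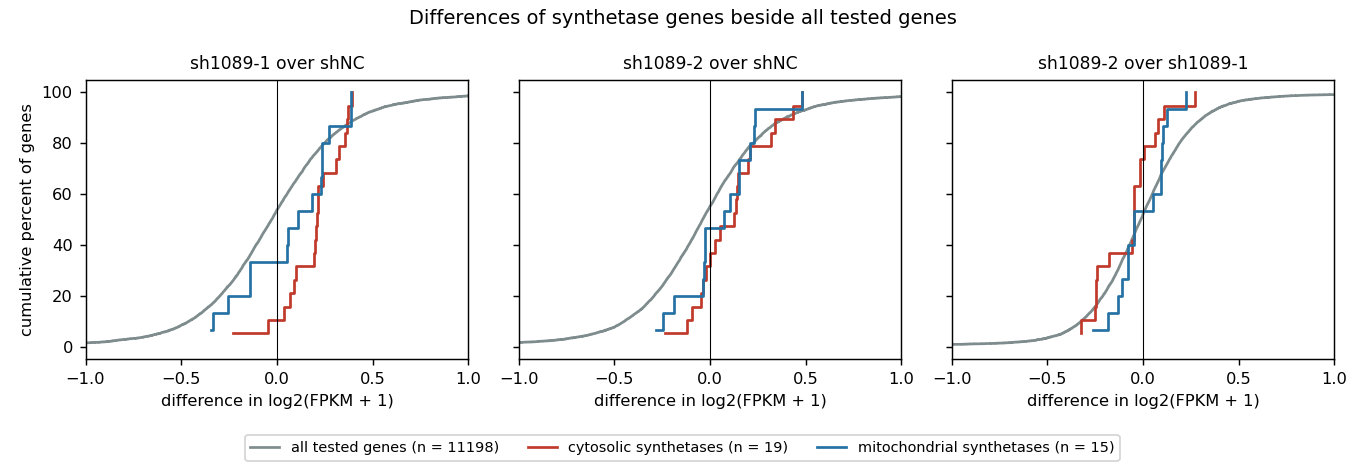
Cumulative percent of genes by difference in log2(FPKM + 1), for 19 cytosolic synthetase genes, 15 mitochondrial ones and all 11198 tested genes, in the 3 comparisons. The synthetase curves end within 0.5 of 0 on both sides, and in sh1089-1 over shNC the cytosolic curve lies to its right over most of its length.

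Cytosolic genes were also set beside the listed mitochondrial gene for the same amino acid. GARS1, KARS1 and QARS1 have no such partner in the list. FARSA stood for phenylalanine, and EPRS1 was paired both with EARS2 and with PARS2. In 15 pairs with both genes above 1 FPKM, the cytosolic gene was the higher in 14 in each library, with a median ratio of 5.55 in sh1089-1, 5.56 in sh1089-2 and 4.72 in shNC. The exception was isoleucine, where IARS1 over IARS2 was 0.751 in sh1089-1, 0.675 in sh1089-2 and 0.507 in shNC. IARS1 was above and IARS2 below the control in both hairpin libraries, which moved this ratio towards 1. The widest gap in shNC, 12.7, was between EPRS1 and EARS2. On coding transcript lengths the cytosolic gene was the higher in 14 pairs in sh1089-1, 13 in sh1089-2 and 13 in shNC. There IARS1 over IARS2 became 1.03, 0.924 and 0.694, and CARS1 over CARS2 became 0.884, 0.873 and 1.00.

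**Figure D4:**
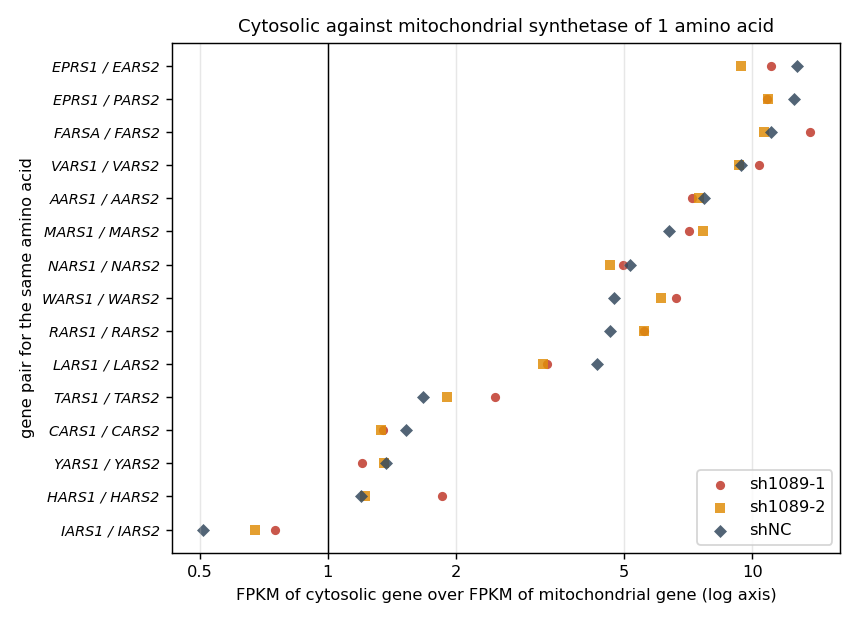
FPKM of the cytosolic gene over FPKM of the mitochondrial gene for 15 pairs that use the same amino acid, on a log axis, 1 point a library. Only IARS1 over IARS2 lies left of 1, and the libraries keep nearly the same order of pairs.

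Genes around the leading members differed little on the median. The 50 tested neighbours of CARS2, GARS1, MARS1 and QARS1 on their chromosomes (44 for CARS2, near a chromosome end) had medians between −0.04 and 0.12 in log2(FPKM + 1) in either hairpin library over shNC. FARSB on chromosome 2 lay among neighbours with medians of −0.26 and −0.19, while its own differences were 0.04 and −0.02. YARS2 on chromosome 12 lay among neighbours at −0.10 and −0.25, against 0.39 and 0.21 for the gene itself. IARS2 and EPRS1 are nearby on chromosome 1, at 220094102 to 220148041 and 219968601 to 220046658 in GENCODE 29 on GRCh38, and their neighbours had medians of −0.10 and −0.09 for IARS2 and −0.12 and −0.09 for EPRS1.

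The ATF4 link of these genes was examined next, because many cytosolic members are induced in amino acid shortage. The 12 members listed as ATF4 targets had median differences of 0.21 in sh1089-1 and 0.14 in sh1089-2, and the 7 other cytosolic members 0.20 and −0.00. In sh1089-2 the intervals over members overlapped, at −0.04 to 0.32 for the 12 and −0.09 to 0.48 for the 7. The −0.00 is the value of HARS1, which lay above shNC after rescaling to TPM or with median-of-ratios size factors. ATF4 mRNA itself had 141 FPKM in sh1089-1 and 128 in sh1089-2, against 121 in shNC. ATF4 is controlled largely through translation of its mRNA, which was not measured. The ATF4 targets that are not synthetases were spread far more widely than the synthetases. Of 26 tested, 5 were at least 1.5-fold higher and 5 lower in sh1089-1, and 2 higher and 6 lower in sh1089-2. These are 19.2% and 19.2% in sh1089-1, against 5.27% and 5.83% of all tested genes, and 7.69% and 23.1% in sh1089-2, against 4.89% and 5.63%. PHGDH, the first enzyme of serine synthesis, had 20.4 and 20.2 FPKM in the hairpin libraries, against 11.1 in shNC, and PSPH, the last enzyme of that pathway, 12.8 and 11.5, against 6.80. The transcription factor CEBPB had 57.1 and 44.7 FPKM, against 111, the cystine transporter SLC7A11 4.15 and 3.65, against 6.96, and the amino acid transporter SLC38A2 48.6 and 47.1, against 78.1. Known ATF4 targets thus lay on both sides of shNC, and the synthetases among them lay between. The 9 regulators of the stress response had medians of −0.12 and −0.13, with 0 of 9 past 1.5-fold in either library. PPP1R15A, a feedback phosphatase subunit, had 40.0 and 33.2 FPKM, against 47.6.

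Bases before the RefSeq starts of the members were searched for TGATGNAA, the core of the element that ATF4 binds with a C/EBP partner. RefSeq promoters were found for 30 of 35 members, without LARS1, VARS1, YARS1, AARS2 and VARS2. Within 250 bases before any listed start, on either strand, the letters occurred in 4 of 30 members, AARS1, GARS1, IARS1 and YARS2 (13.3%), and in 3.89% of 27305 genes. All 4 lay above shNC in both hairpin libraries, by differences between 0.15 and 0.44 in log2(FPKM + 1). So did members without a match, such as QARS1, CARS2 and MARS1. Of the 34 tested members, 27 lay above shNC in sh1089-1 (79.4%) and 20 in sh1089-2 (58.8%). A link between match and level was not tested. A match is a description of the letters and not a bound site. The letters CCGGAAG, a core bound by ETS-family factors, occurred in 16 of 30 members (53.3%), against 10.2% of all genes. In both searches the background was not limited to expressed or protein-coding genes, so the shares are not like for like. The motifs share the letters GGAA where N is G, and GARS1 holds both. Upstream stretches of AARS1, IARS1 and YARS2 are shown to set the match in its context, each 250 bases long, ending at the base before the RefSeq start, written 5′ to 3′ on the gene's own strand of build GRCh38.p14, with TGATGNAA or its reverse complement in capitals. They are the minus strand of chr16:70289507-70289756, of chr9:92293698-92293947 and of chr12:32755898-32756147. In AARS1 and IARS1 the match reads as its reverse complement, and in IARS1 it begins 13 bases before the start.
AARS1: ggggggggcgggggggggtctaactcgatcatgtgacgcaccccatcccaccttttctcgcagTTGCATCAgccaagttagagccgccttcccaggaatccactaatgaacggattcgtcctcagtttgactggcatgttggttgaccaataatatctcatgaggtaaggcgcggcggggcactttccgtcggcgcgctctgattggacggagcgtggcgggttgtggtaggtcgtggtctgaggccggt
IARS1: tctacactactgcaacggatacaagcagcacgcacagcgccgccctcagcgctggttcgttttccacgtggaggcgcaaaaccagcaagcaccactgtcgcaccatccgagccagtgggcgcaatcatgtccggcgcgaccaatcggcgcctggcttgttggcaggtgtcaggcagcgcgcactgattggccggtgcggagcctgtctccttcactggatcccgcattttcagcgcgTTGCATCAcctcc
YARS2: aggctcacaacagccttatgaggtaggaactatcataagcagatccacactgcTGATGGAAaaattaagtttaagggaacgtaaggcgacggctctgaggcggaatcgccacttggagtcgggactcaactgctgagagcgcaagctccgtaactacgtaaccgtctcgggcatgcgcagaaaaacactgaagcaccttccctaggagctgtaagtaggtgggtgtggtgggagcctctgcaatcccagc

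Genes that work beside the synthetases were read against the same background, counted in log2(FPKM + 1). In it 5.27% of all tested genes were at least 1.5-fold higher in sh1089-1 and 4.89% in sh1089-2, and 5.83% and 5.63% were lower. Of 7 tested elongation factor genes, which carry charged tRNA to the ribosome and move it on, 1 was at least 1.5-fold higher in sh1089-1 and 1 in sh1089-2, in each case EEF1A2, which makes 14.3% of so short a list. EEF1A1, the main carrier, had 909 FPKM in sh1089-1 and 1187 in sh1089-2, against 1189.9 in shNC, and the translocase EEF2 743 and 770.0, against 673. Of 14 tRNA maturation genes, 2 were at least 1.5-fold higher in sh1089-1, ELAC2 and POP1 (14.3%), and 0 in sh1089-2, with 0 lower in both. The pseudocount matters here. By the ratio of FPKM, RPP38 was 1.51-fold (1.23 to 1.87) lower in sh1089-1 and TRNT1 1.60-fold (1.19 to 2.15) lower in sh1089-2. At 1.25-fold in log2(FPKM + 1), 2 were higher in sh1089-2 (14.3%, against 13.2% of all tested genes) and 4 lower (28.6%, against 17.6%). RTCB, the tRNA ligase, had 49.1 and 51.5 FPKM, against 42.3, and ELAC2, which trims the 3′ end of tRNA, 51.9 and 44.3, against 29.6. Of 10 mitochondrial charging and modification genes, 1 passed upward in sh1089-1, the tRNA thiolation enzyme gene TRMU (10%), and 0 in sh1089-2. Downward 0 passed in either library, and the medians were 0.02 and −0.16. At any size 5 of 10 lay below shNC in sh1089-1 (50%, against 53.6% of all tested genes) and 6 in sh1089-2 (60%, against 55.1%). GATC, a subunit of the amidotransferase that makes mitochondrial glutaminyl-tRNA, had 35.3 and 31.7 FPKM, against 30.4. QRSL1 and GATB, for other subunits of that enzyme, lay below shNC. QRSL1 had 2.35 and 2.52 FPKM, against 3.27, and GATB 1.75 and 1.80, against 2.15. MTFMT had 2.87 and 2.79 FPKM, against 4.25, by ratio 1.48-fold (1.14 to 1.93) and 1.52-fold (1.16 to 2.02) lower. PUS1, a pseudouridine synthase for tRNA, had 14.3 and 10.3, against 10.1.

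Free-standing editing and selenocysteine genes were low, with 3 of 5 above the filter, of which 0 passed 1.5-fold in log2(FPKM + 1). Of all tested genes 5.27% passed upward in sh1089-1 and 4.89% in sh1089-2, and 5.83% and 5.63% downward. DTD2 had 4.56 and 3.43 FPKM, against 3.81. DTD1 had 2.27 and 3.02, against 1.98, and both encode deacylases that clear wrongly charged tRNA. For WARS1, genes known to be induced with it by interferon gamma were checked. Of 11, 5 were tested, with 0 past 1.5-fold in log2(FPKM + 1) in sh1089-1 and 1 higher in sh1089-2, IRF1. That is 20%, against 4.89% of all tested genes, but in so short a list these shares decide nothing. The peptide transporter gene TAP1 had 28.4 FPKM in sh1089-1 and 28.5 in sh1089-2, against 32.8 in shNC.

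**Figure D5:**
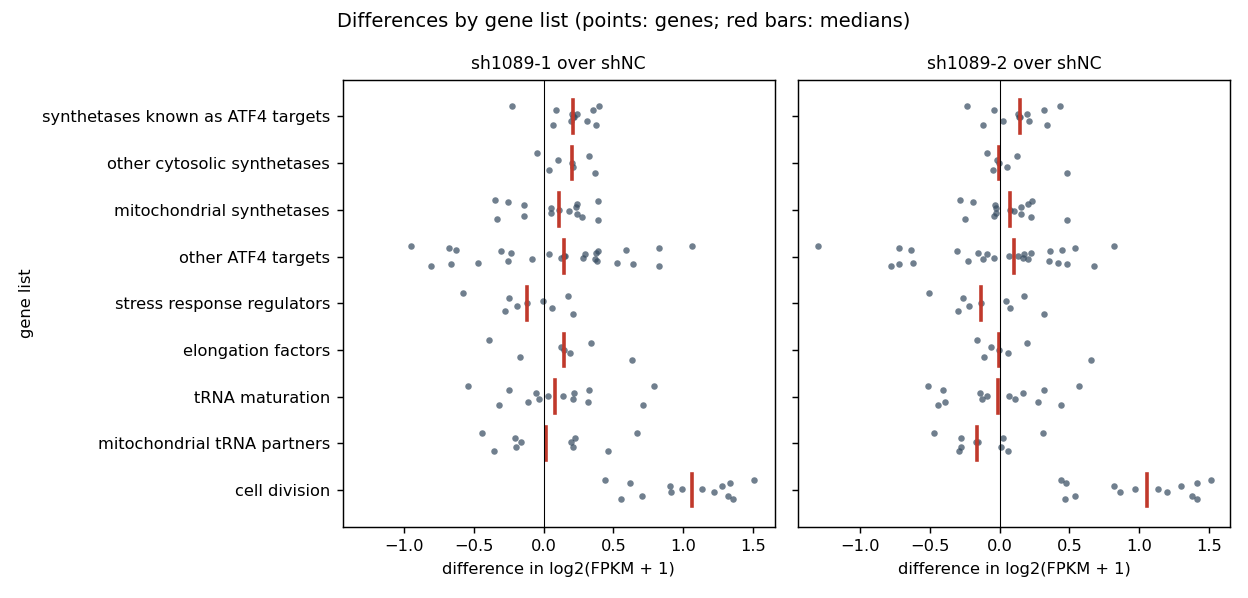
Difference in log2(FPKM + 1) of each tested gene by list, in sh1089-1 over shNC and sh1089-2 over shNC, with red bars at list medians. Synthetase genes lie within 0.5 of shNC in either direction, other ATF4 targets spread to both sides, and all cell division genes lie above shNC.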

How the data were processed

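RNA sequencing of 3 SK-Hep-1 libraries was analysed from the FPKM table that the authors deposited. Per the labels' protocols, Trizol RNA was enriched for mRNA before strand-specific library construction. FastQC, StringTie and build GRCh38 appear in the submitters' processing notes. The sources used here name no aligner, annotation release or version. Symbols were found for 22375 of 22464 identifiers. Types and coordinates came from GENCODE 29.

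Reads were recovered as the whole numbers, within 0.002, that fit a whole gene length in all libraries, which worked for 99.9% of 19204 genes above 0. Intervals are 95% Clopper-Pearson on those reads and cover counting error only, since reads carry no molecular identifiers. The recovery was tested on simulated data.

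Differences are in log2(FPKM + 1) at a mean of at least 1 FPKM. With 1 library a group there is no test and no p-value. Members, lists and tests were chosen with earlier results of these data known. All members were named, intervals going to the 8 with the largest mean difference from shNC and to EPRS1, HARS1 and HARS2, chosen after their values were seen. From other lists, genes past 1.5-fold in both hairpin libraries (at most 6) or else the 2 most abundant were named, and the highest and zero markers. A gene that this rule names is not reported here. Pseudocount, filter, scaling and gene type were varied. Python 3.11.15, pandas 2.3.3 and scipy 1.17.1 were used.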

Additional observations from a re-analysis of the deposited data

Results flagged for a closer look

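EPRS1 was 1.07-fold above shNC in sh1089-1, while its ratio to shNC in sh1089-2 was 0.845. It was the only one of the 34 tested synthetase genes whose counting intervals lay on opposite sides of equal levels in the hairpin libraries, the lower bound in sh1089-1 being 1.00. The difference was not tested against replicates, since each group is 1 library.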

How the results depend on the processing

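No paired analysis was possible because each group holds 1 library and the labels give no replicate numbers. Leaving out a library was not possible for the same reason. Under the 6 alternatives, 144 counts and medians were recomputed. By the rule that a count moves when it changes over 1.5 times and a median when it leaves its interval, 8 moved, 6 of them counts at 1.25-fold. The counts at 1.5-fold stayed at 0 in each comparison. In sh1089-2 over shNC the 14 genes below at any size became 6 after rescaling to TPM and 6 with median-of-ratios size factors. Medians stayed within their intervals, but in sh1089-2 over shNC the mitochondrial one ran between 0.03 and 0.14 and the cytosolic one between 0.12 and 0.19. In sh1089-1 over shNC the 2 lower genes became 1 at a mean of at least 5 FPKM, 1 after rescaling to TPM and 0 with median-of-ratios size factors. In sh1089-2 over shNC the 0 lower genes became 1 with a pseudocount of 0.1 and 1 with no filter. In sh1089-2 over sh1089-1 the 2 lower genes became 0 after rescaling to TPM. The cause was not tested. Of 105 gene differences, 13 changed sign under some scaling, each within 0.05 of 0 in log2(FPKM + 1) as deposited. Scaling moved the median of all genes by at most 0.06. Depth limits the mitochondrial genes most: PARS2 rests on 61 to 88 reads and SARS2 on 5 to 26.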
